A study of Mus musculus with 16 samples.

Results

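The RUNX, CBFB and ETO family genes of the mouse were followed in c-Kit-selected bone marrow cells that carried, or did not carry, the fusion oncogene AML1-ETO9a. The genes were taken by name: Runx1, Runx2 and Runx3, their shared partner Cbfb, and the ETO genes Runx1t1, Cbfa2t2 and Cbfa2t3. Of these 7 genes, 6 had a named probe on the BeadChip, with 13 probes in all out of 25697 on the array, and Runx2 had none. A probe was tested when its detection p, the chance of such a signal among negative control probes, was under 0.05 on at least 4 arrays. This held for 9 of the 13 family probes, from 5 genes, and for 12760 probes in all.

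Expression was measured on 16 Illumina mouse BeadChip arrays in 4 groups of 4 replicates each. Booreana AML1-ETO9a cells and Booreana control cells came from mice of a Myb mutant strain, and carried the retroviral vectors MSCV-AML1-ETO9a-I-GFP and MSCV-I-GFP, which hold the oncogene with green fluorescent protein or that protein alone. Wild-type AML1-ETO9a cells and wild-type control cells came from C57Bl/6 mice and carried the same pair of vectors. All animals were 8 weeks old, and all cells had been enriched for c-Kit, grown with IL-3, IL-6 and stem cell factor, and sorted for GFP and c-Kit 48 hours after transduction. The labels name 4 Booreana mice and do not give the number of wild-type mice, so the p-values speak only of the spread among arrays, which may be technical. A retroviral promoter drives the oncogene in every transduced cell, and the sorted cells are a bulk mixture in which fewer cells of a type and less RNA per cell cannot be told apart.

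RUNX proteins bind DNA through the runt domain, and CBFB, which does not bind DNA itself, strengthens that contact and protects the RUNX protein from degradation. In blood, RUNX1 is needed for stem cells to form in the embryo and later for platelet, lymphoid and myeloid maturation. The ETO proteins bind no DNA on their own: they are carried to it by factors such as E proteins, TAL1 and GATA1, and there they recruit corepressors and histone deacetylases. AML1-ETO joins the runt domain of human RUNX1 to most of human ETO, the product of RUNX1T1, and AML1-ETO9a is a shorter splice form of it that causes leukaemia in mice.

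Values are log2 normalized intensities, on which a step of 1 is a doubling. Levels of different probes cannot be set against each other, so each probe was compared with itself across groups. Differences are given with the standard error of the limma fit, and p-values are adjusted over all 12760 probes. Of the 9 tested family probes, 3 were called at an adjusted p under 0.05 for AML1-ETO9a against control in Booreana cells, 1 higher and 2 lower. Among all probes 1.65% were called there, 1.05% higher and 0.596% lower. In wild-type cells 2 were called, 1 higher and 1 lower, where 4.32% of all probes were called, 2.47% higher and 1.85% lower. For Booreana against wild-type with AML1-ETO9a, 2 were called, both higher, where 3.74% of all probes were called, 2.32% higher and 1.42% lower. With the control vector 2 were called, both higher, where 6.34% of all probes were called, 3.77% higher and 2.57% lower. The difference between the AML1-ETO9a responses of the genotypes, the Booreana response minus the wild-type response, had 0 family probes called by limma and 3 at an unadjusted p under 0.05. Across all probes 11 were called, or 0.0862%, with 0.0705% higher and 0.0157% lower. The called probes belonged to Runx1, Cbfa2t3 and Runx1t1. One of them, for Runx1t1, was testable only because the Booreana AML1-ETO9a arrays detected it. Without it, 8 probes were tested, of which 2 were called for AML1-ETO9a in Booreana cells and 2 in wild-type cells, and between genotypes 1 was called with AML1-ETO9a and 2 with the control vector.

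**Figure D1:**
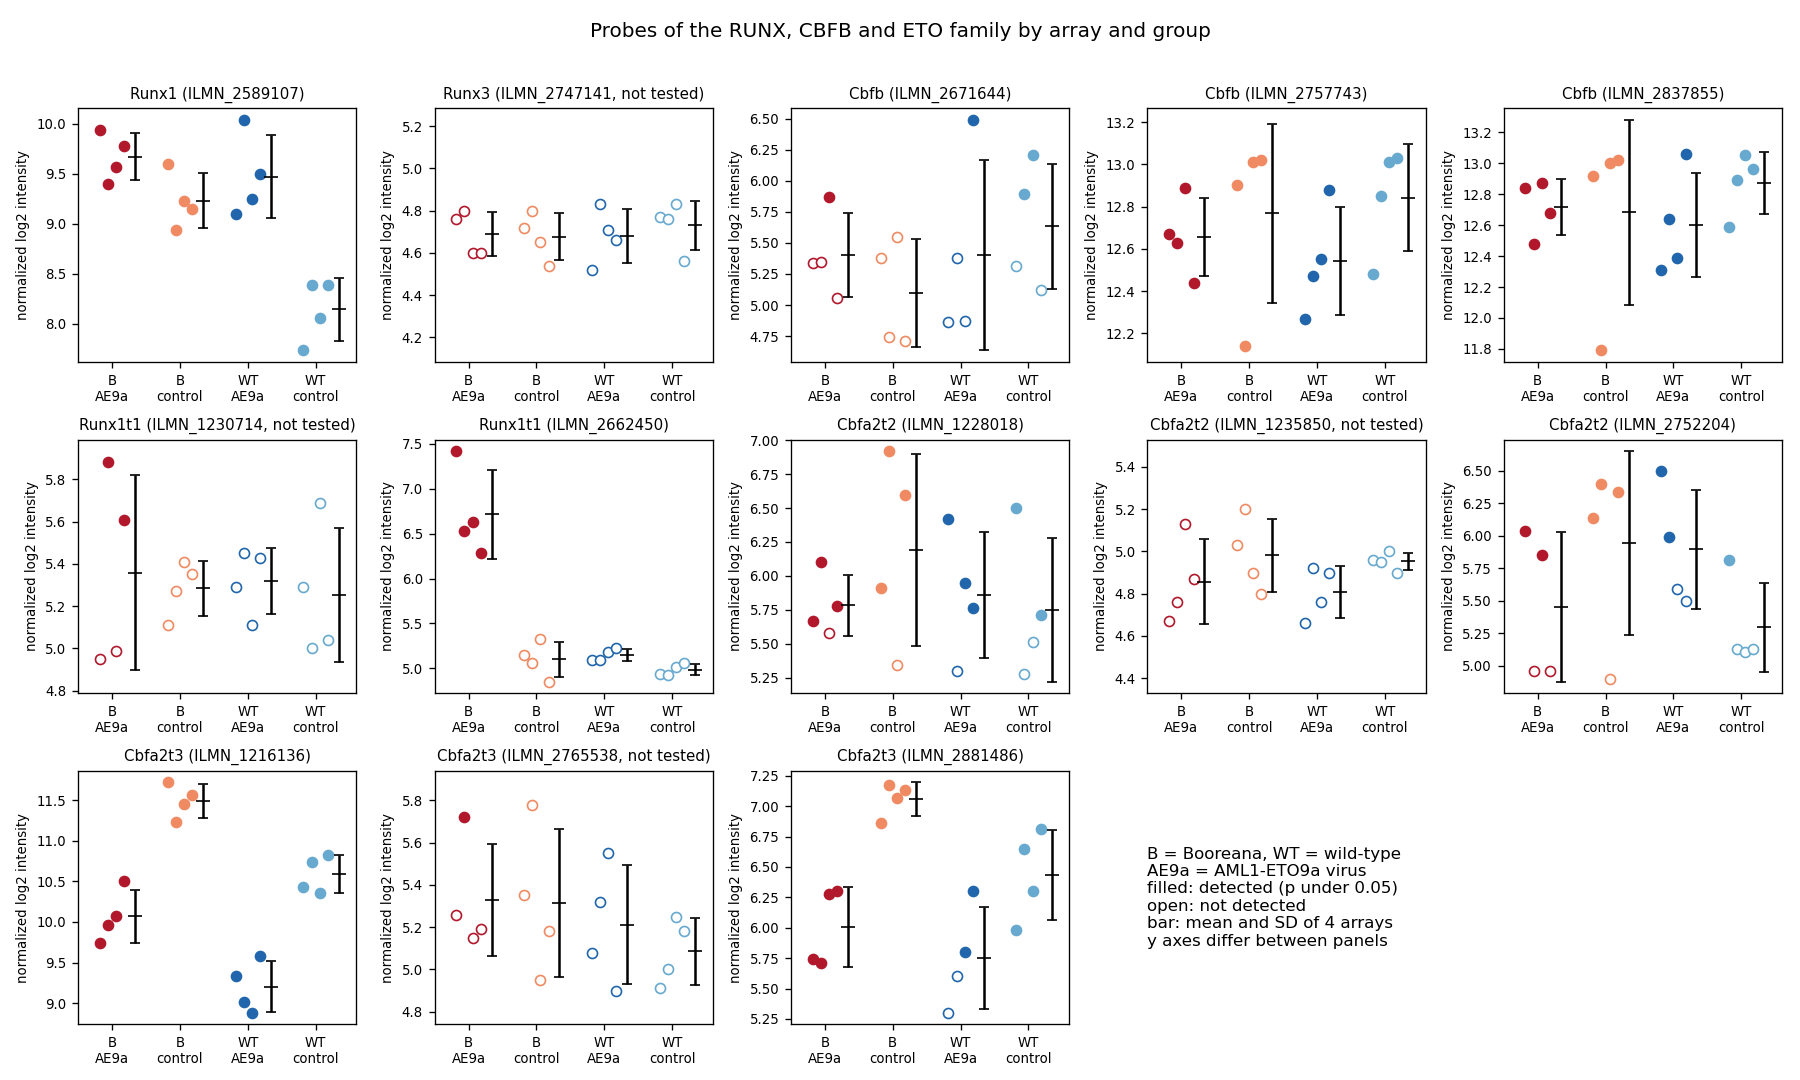
Normalized log2 intensity of the 13 family probes on each of the 16 arrays, 1 panel per probe with its own axis; filled points are arrays on which the probe was detected, and bars give the mean and SD of a group. The Runx1 points of wild-type control cells lie below those of the other 3 groups, the brighter Cbfa2t3 probe is lower in AML1-ETO9a cells of both genotypes, and the Runx1t1 probe ILMN_2662450 is detected in Booreana AML1-ETO9a cells alone.

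A promoter window is shown for Runx1 and for Cbfa2t3, because AML1-ETO9a and MYB are DNA-binding proteins. These are the 2 genes whose level differed between groups on a probe detected everywhere. Each has a further window, not shown, which held no RUNX, MYB or GATA letters. The sequences are RefSeq's (GRCm38.p6), 250 bases before a transcription start, written 5′ to 3′ on the gene's strand. The first lies at chr16:92826075-92826324 (minus strand) before the upstream start of Runx1, and its capitals mark MYB letters. The second lies at chr8:122699110-122699359 (minus strand) before the more upstream of the 2 Cbfa2t3 starts in the table; the gene's annotated span, which ends at base 122699332, covers most of it. Its capitals mark adjoining RUNX and GATA letters.
Runx1 upstream start: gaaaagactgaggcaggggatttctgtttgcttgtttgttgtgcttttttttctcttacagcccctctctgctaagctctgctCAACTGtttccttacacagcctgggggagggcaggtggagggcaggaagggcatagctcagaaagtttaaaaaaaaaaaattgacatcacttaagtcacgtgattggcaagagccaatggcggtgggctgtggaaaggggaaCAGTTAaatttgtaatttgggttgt
Cbfa2t3 upstream start: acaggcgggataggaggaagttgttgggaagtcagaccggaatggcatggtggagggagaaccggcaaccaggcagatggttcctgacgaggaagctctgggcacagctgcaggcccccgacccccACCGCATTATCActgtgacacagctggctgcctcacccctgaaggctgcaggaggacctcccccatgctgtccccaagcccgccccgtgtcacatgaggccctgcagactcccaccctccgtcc
RUNX letters were searched as TGTGGT and also as TGCGGT. MYB letters were searched as TAACTG and also as CAACTG, and in the further forms TAACGG and also CAACGG. For GATA the letters were searched as AGATAA and also as TGATAA. Each was sought on both strands. The table held 9 windows for 6 of the 7 genes, and none for Runx1t1. RUNX letters stood in 3 of the 9 windows, those of Runx2, the upstream start of Runx3 and the upstream start of Cbfa2t3, and in 18.6% of all 32851 windows in the table. MYB letters stood in 2 of the 9, the upstream start of Runx1, which held 2 matches, and Cbfa2t2, and in 23.7% of all windows. GATA letters stood in 1 of the 9, the upstream start of Cbfa2t3, and in 16.6% of all windows. These matches describe letters only, and the arrays do not tell from which start a transcript came.

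Runx1 (GRCm38.p6 chr16:92601466-92826074), which encodes the DNA-binding subunit whose human counterpart supplies the DNA-binding end of the fusion, was lowest in wild-type control cells and higher in each of the other groups. Its 1 probe, ILMN_2589107, was detected on all 16 arrays. It read 9.94, 9.40, 9.57 and 9.78 in Booreana AML1-ETO9a cells and 9.60, 8.94, 9.23 and 9.15 in Booreana control cells. It read 9.10, 10.04, 9.25 and 9.50 in wild-type AML1-ETO9a cells and 7.73, 8.39, 8.06 and 8.39 in wild-type control cells. All 4 wild-type control arrays lay below every other array, while the remaining 3 groups overlapped. The deposited intensities before any correction showed the same separation, with 985 to 1101 in Booreana AML1-ETO9a cells, 602 to 834 in Booreana control cells, 721 to 1270 in wild-type AML1-ETO9a cells and 386 to 470 in wild-type control cells.

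Runx1 rose with AML1-ETO9a in wild-type cells, with means of 9.47 ± 0.41 in AML1-ETO9a cells and 8.14 ± 0.31 in control cells (SD, n = 4 each). The difference was 1.33 ± 0.23 (95% interval 0.84 to 1.82), a 2.51-fold change with an adjusted p of 0.00264, and it ranked 169 among all probes by p. In Booreana cells the means were 9.67 ± 0.24 with AML1-ETO9a and 9.23 ± 0.28 with control vector (SD, n = 4 each), and the difference of 0.45 ± 0.23 was not called (95% interval -0.05 to 0.94, adjusted p = 0.467). The Booreana response was thus 0.88 log2 units below the wild-type one (-0.88 ± 0.33, 95% interval -1.58 to -0.19), a difference with an unadjusted p of 0.0163 that did not pass adjustment (adjusted p = 0.572).

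With the control vector, Runx1 was higher in Booreana than in wild-type cells by 1.08 ± 0.23 (95% interval 0.59 to 1.58), which is 2.12-fold with an adjusted p of 0.00824. With AML1-ETO9a the genotypes differed by 0.20 ± 0.23 (95% interval -0.29 to 0.69, adjusted p = 0.909). That interval leaves room for a Booreana level lower or higher than the wild-type one. In order of mean level the groups ran wild-type control, Booreana control, wild-type AML1-ETO9a and Booreana AML1-ETO9a. The wild-type control stood apart from its neighbour in that order, and the ranges of the 3 higher groups overlapped. The probe's sequence was not available here, so whether it reads the human RUNX1 stretch of the viral transcript was not tested.

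Levels of blood lineage markers moved with the same groups. The summed normalized intensity, less background, of the 4 monocyte and macrophage markers with a probe (of 5 listed) ran from 8390 to 12300 in Booreana AML1-ETO9a cells, from 4470 to 5150 in Booreana control cells, from 8100 to 10800 in wild-type AML1-ETO9a cells and from 2160 to 3040 in wild-type control cells; of its members, Ccr2 was not detected on any array. The 5 megakaryocyte markers with a probe (of 6) summed to 4700 to 10100 in Booreana AML1-ETO9a cells, 3640 to 7650 in Booreana control cells, 3050 to 7530 in wild-type AML1-ETO9a cells and 610 to 1930 in wild-type control cells. Both sums were lowest in wild-type control cells, with no overlap with another group, but single markers differed. Among the megakaryocyte markers, Pf4 and Ppbp were called higher with AML1-ETO9a in wild-type cells (2.27 and 4.34), while Itga2b (-0.71), Gp9 (-0.44) and Gp1bb (-0.27) had lower means and were not called, and the list's median was -0.27. Of the 3 tested monocyte and macrophage markers, Adgre1, Cd14 and Mrc1 were all called higher in that comparison (1.66, 1.61 and 3.18). Between Booreana and wild-type control cells Adgre1 was the 1 called (1.33), and Cd14 was at -0.30. Their part in the Runx1 difference was not tested.

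The other RUNX genes were not measured above background. Runx3 (chr4:135120645-135177990), the family member best known from T cells and NK cells, was not detected on any of the 16 arrays by its 1 probe, ILMN_2747141. Its mean was 4.69 in Booreana AML1-ETO9a cells, 4.68 in Booreana control cells, 4.68 in wild-type AML1-ETO9a cells and 4.73 in wild-type control cells, all within background. Among the T cell and NK cell markers, Cd3e, Cd4 and Cd8a were likewise not detected on any array, and 7 of the 8 listed had a probe. Their sum, 243 to 307 in Booreana AML1-ETO9a cells, 786 to 2230 in Booreana control cells, 397 to 1020 in wild-type AML1-ETO9a cells and 2120 to 4140 in wild-type control cells, came with 1 member tested, Nkg7. Runx2 (chr17:44495987-44814797), the master gene of bone-forming cells, had no named probe and so no value. Of 6 listed stroma and osteoblast markers 5 had a probe, and Col1a1, Bglap and Sp7 were not detected on any array. Sparc, the 1 tested, was detected on 4 Booreana AML1-ETO9a arrays, 1 wild-type AML1-ETO9a array and no control array. In Booreana cells its signal was at least 2.48-fold higher with AML1-ETO9a than with the control vector (adjusted p = 0.0143 for the limma fit). Sparc had entered the test only through the group in which it was high. Between genotypes with AML1-ETO9a, Sparc differed by 1.57 (adjusted p = 0.0341), a size resting partly on background. Which cells gave the Sparc signal was not tested.

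Cbfb (chr8:105170674-105217989), the partner that every RUNX protein uses, showed no called change in any comparison. Its probe ILMN_2837855 read 12.84, 12.48, 12.87 and 12.68 in Booreana AML1-ETO9a cells and 12.92, 11.79, 13 and 13.02 in Booreana control cells. It read 12.31, 12.64, 12.39 and 13.06 in wild-type AML1-ETO9a cells and 12.59, 12.89, 13.05 and 12.96 in wild-type control cells. The 4 groups overlapped, and the low value of 11.79 came from Booreana control replicate 2, the array that stood apart from the rest. AML1-ETO9a against control gave 0.04 in Booreana cells (95% interval -0.51 to 0.59, adjusted p = 0.969) and -0.27 ± 0.26 in wild-type cells (95% interval -0.82 to 0.28, adjusted p = 0.839). Booreana against wild-type gave 0.12 with AML1-ETO9a (adjusted p = 0.968) and -0.19 with the control vector (adjusted p = 0.772).

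The other bright Cbfb probe, ILMN_2757743, averaged 12.66 ± 0.19 in Booreana AML1-ETO9a cells, 12.77 ± 0.42 in Booreana control cells, 12.55 ± 0.25 in wild-type AML1-ETO9a cells and 12.84 ± 0.26 in wild-type control cells (SD, n = 4 each). Its change with AML1-ETO9a was -0.11 in Booreana cells (adjusted p = 0.866) and -0.30 ± 0.22 in wild-type cells (95% interval -0.76 to 0.16, adjusted p = 0.716). Neither bright probe placed one group clear of another. A dim Cbfb probe, ILMN_2671644, was detected on 4 of 16 arrays in all and carried no called change.

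Runx1t1 (chr4:13742628-13895056), the mouse counterpart of ETO itself, was detected in Booreana AML1-ETO9a cells and in no other group. Its probe ILMN_2662450 read 7.42, 6.53, 6.63 and 6.28 in Booreana AML1-ETO9a cells, and 5.15, 5.06, 5.33 and 4.85 in Booreana control cells. It read 5.09, 5.09, 5.18 and 5.22 in wild-type AML1-ETO9a cells and 4.94, 4.93, 5.01 and 5.06 in wild-type control cells. All 4 Booreana AML1-ETO9a arrays were detected and lay above the 12 others, none of which was detected. The deposited intensities were 317, 298, 293 and 254 in Booreana AML1-ETO9a cells, against 181, 227, 227 and 170 in Booreana control cells, so the signal was a modest rise over the array background.

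For probes not above background in a group, only a bound on the change can be given: the brighter group's mean over, array by array, the higher of the dim probe's own signal and the lowest signal among detected probes. On that footing the Booreana AML1-ETO9a cells had at least 1.94-fold more Runx1t1 signal than Booreana control cells (adjusted p = 0.000506). Against wild-type AML1-ETO9a cells they had at least 2.04-fold more (adjusted p = 0.000264). An adjusted p given with a bound belongs to the limma fit, not to the bound. The bounds were taken under the main background correction alone. Over the alternatives the fitted log2 difference ranged from 0.31 to 1.76 against Booreana control cells. Against wild-type AML1-ETO9a cells it ranged from 0.29 to 1.76, and both stayed called throughout. In wild-type cells with either vector, and in Booreana and wild-type cells with the control vector, both groups were below background and no fold is given. No size is given for the difference between the AML1-ETO9a responses, since 3 of its 4 groups were at background; its fit missed the threshold (adjusted p = 0.0805), and passed without Booreana AML1-ETO9a replicate 4 (adjusted p = 0.0464). The probe had entered the test only through the group in which it was high, and with every probe tested the adjusted p for the called comparisons was 0.000494 and 0.000269.

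The wild-type AML1-ETO9a cells carried the same virus and were not detected by this Runx1t1 probe on any array. Whether the probe reads the ETO stretch of the viral transcript was not tested, since the probe's sequence was not available here. A further Runx1t1 probe, ILMN_1230714, was detected on Booreana AML1-ETO9a replicates 2 and 4, at 5.88 and 5.61, and on no other array, and was not tested. Progenitor markers had their highest sum in the same group: the 4 listed with a probe (of 5, Kit having none) summed to 3550 to 4190 in Booreana AML1-ETO9a cells, 2050 to 3250 in Booreana control cells, 851 to 1420 in wild-type AML1-ETO9a cells and 349 to 624 in wild-type control cells. Of these, Cd34, Meis1 and Hoxa9 were tested and Flt3 was not detected on any array. Single markers differed. Against wild-type AML1-ETO9a cells, Meis1 was called higher (2.42, adjusted p = 5.45e-05), while Cd34 (0.58) and Hoxa9 (0.10) were not called. Against Booreana control cells, Cd34 was called higher (1.27, adjusted p = 0.0348), while Meis1 (0.61) and Hoxa9 (-0.27) were not called. Their part in the Runx1t1 difference was not tested.

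Cbfa2t2 (chr2:154436098-154539356), which encodes the ETO relative MTGR1, was near background throughout and had no called change. Its probe ILMN_1228018 averaged 5.78 ± 0.23 in Booreana AML1-ETO9a cells, 6.19 ± 0.71 in Booreana control cells, 5.86 ± 0.46 in wild-type AML1-ETO9a cells and 5.75 ± 0.53 in wild-type control cells (SD, n = 4 each). It was detected on 3 arrays of each group but wild-type control, where it was detected on 2. AML1-ETO9a against control gave -0.41 in Booreana cells (adjusted p = 0.657) and 0.11 in wild-type cells (adjusted p = 0.974). A further tested probe, ILMN_2752204, gave -0.49 in Booreana cells (adjusted p = 0.617) and 0.60 ± 0.36 in wild-type cells (adjusted p = 0.578). The last, ILMN_1235850, was not detected on any array, and at signals so close to background the probes could not show small changes.

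Cbfa2t3 (chr8:122625136-122699332), which encodes the ETO relative known as ETO2 or MTG16, a partner of TAL1 and GATA1 in blood progenitors, fell with AML1-ETO9a in both genotypes and was higher in Booreana than in wild-type cells with either vector. Its brightest probe, ILMN_1216136, was detected on all 16 arrays. It read 9.74, 9.96, 10.07 and 10.51 in Booreana AML1-ETO9a cells and 11.72, 11.23, 11.45 and 11.57 in Booreana control cells. It read 9.34, 9.01, 8.88 and 9.58 in wild-type AML1-ETO9a cells and 10.43, 10.74, 10.36 and 10.83 in wild-type control cells. Within each genotype the AML1-ETO9a arrays all lay below the control arrays, and with each vector the Booreana arrays all lay above the wild-type arrays. The one overlap was between Booreana AML1-ETO9a and wild-type control cells, which differ in both factors.

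In Booreana cells the Cbfa2t3 means were 10.07 ± 0.32 with AML1-ETO9a and 11.49 ± 0.21 with control vector (SD, n = 4 each). The change was -1.42 ± 0.21 (95% interval -1.87 to -0.98, adjusted p = 0.00165), which is 2.68-fold lower and ranked 38 among all probes. In wild-type cells the means were 9.20 ± 0.32 with AML1-ETO9a and 10.59 ± 0.23 with control vector (SD, n = 4 each). The change was -1.39 ± 0.21 (95% interval -1.83 to -0.95, adjusted p = 0.000815), which is 2.62-fold lower and ranked 102. The Booreana response minus the wild-type response was -0.04 ± 0.29 (adjusted p = 0.981), with a 95% interval of -0.66 to 0.59, so a difference of up to that size between the genotypes' responses stays within the error.

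Booreana cells had 1.83-fold more Cbfa2t3 signal than wild-type cells with AML1-ETO9a (0.87 ± 0.21, 95% interval 0.43 to 1.31, adjusted p = 0.0273) and 1.87-fold more with the control vector (0.91 ± 0.21, 95% interval 0.46 to 1.35, adjusted p = 0.0138). Before correction the intensities were 901 to 1555 in Booreana AML1-ETO9a cells, 2535 to 3974 in Booreana control cells, 695 to 868 in wild-type AML1-ETO9a cells and 1445 to 1878 in wild-type control cells. In that form too the AML1-ETO9a and control arrays of a genotype did not overlap. The genotype comparison with AML1-ETO9a lost its call when any one of 4 arrays was left out: the adjusted p was 0.0934 without wild-type AML1-ETO9a replicate 2, 0.097 without replicate 3 of that group, and 0.0656 and 0.098 without Booreana AML1-ETO9a replicates 3 and 4. The genotype comparison with the control vector lost it without wild-type control replicate 3 (0.83, adjusted p = 0.0565).

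Dimmer Cbfa2t3 probes gave a partial repeat. ILMN_2881486 read 5.74, 5.71, 6.28 and 6.30 in Booreana AML1-ETO9a cells and 6.86, 7.17, 7.07 and 7.13 in Booreana control cells, without overlap. It read 5.30, 5.60, 5.80 and 6.30 in wild-type AML1-ETO9a cells, of which 2 arrays were detected, and 5.98, 6.65, 6.30 and 6.81 in wild-type control cells. Its change with AML1-ETO9a was -1.05 ± 0.24 in Booreana cells (2.07-fold lower, adjusted p = 0.036), which was called, and -0.69 ± 0.24 in wild-type cells (adjusted p = 0.151), which was not. With arrays of one replicate number and genotype as a block, the wild-type change had an adjusted p of 0.0374. Its differences of 0.26 ± 0.24 with AML1-ETO9a and 0.62 ± 0.24 with the control vector between genotypes were not called (adjusted p = 0.854 and 0.169). The last Cbfa2t3 probe, ILMN_2765538, was detected on 1 array of 16 and was not tested.

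Erythroid marker sums also differed between the genotypes in which Cbfa2t3 differed. The 3 erythroid markers with a probe (of 6) summed to 4180 to 12200 in Booreana AML1-ETO9a cells, 5330 to 8990 in Booreana control cells, 182 to 406 in wild-type AML1-ETO9a cells and 200 to 722 in wild-type control cells. The 8 mast cell and basophil markers, all with a probe, summed to 46700 to 89700 in Booreana AML1-ETO9a cells, 27500 to 60300 in Booreana control cells, 23600 to 43300 in wild-type AML1-ETO9a cells and 13100 to 34800 in wild-type control cells. For the 5 neutrophil markers, all with a probe, the sums were 91800 to 184000 in Booreana AML1-ETO9a cells, 84100 to 193000 in Booreana control cells, 84400 to 173000 in wild-type AML1-ETO9a cells and 198000 to 241000 in wild-type control cells. The erythroid sums separated the genotypes without overlap, the mast cell sums overlapped between them, and the neutrophil sums were highest in wild-type control cells. Hba-a1 was called higher in Booreana cells with AML1-ETO9a (5.27) and with the control vector (5.05). Klf1 was called with the control vector alone, and Epor with neither. Fcer1a and Ms4a2 were called higher in Booreana cells with either vector, and Hdc with the control vector. With AML1-ETO9a, Mcpt8 and Prss34 were called lower in both genotypes, Cpa3 higher in both and Hdc higher in wild-type cells. Tpsab1, detected on no control array, was at least 6.09-fold higher with AML1-ETO9a in Booreana cells and was called (adjusted p = 0.00914 for the limma fit). In wild-type cells it was at least 2.82-fold higher and was not called (adjusted p = 0.113). Tpsab1 was testable only because the Booreana AML1-ETO9a arrays detected it. No neutrophil marker was called. Their part in the Cbfa2t3 differences was not tested.

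**Figure D2:**
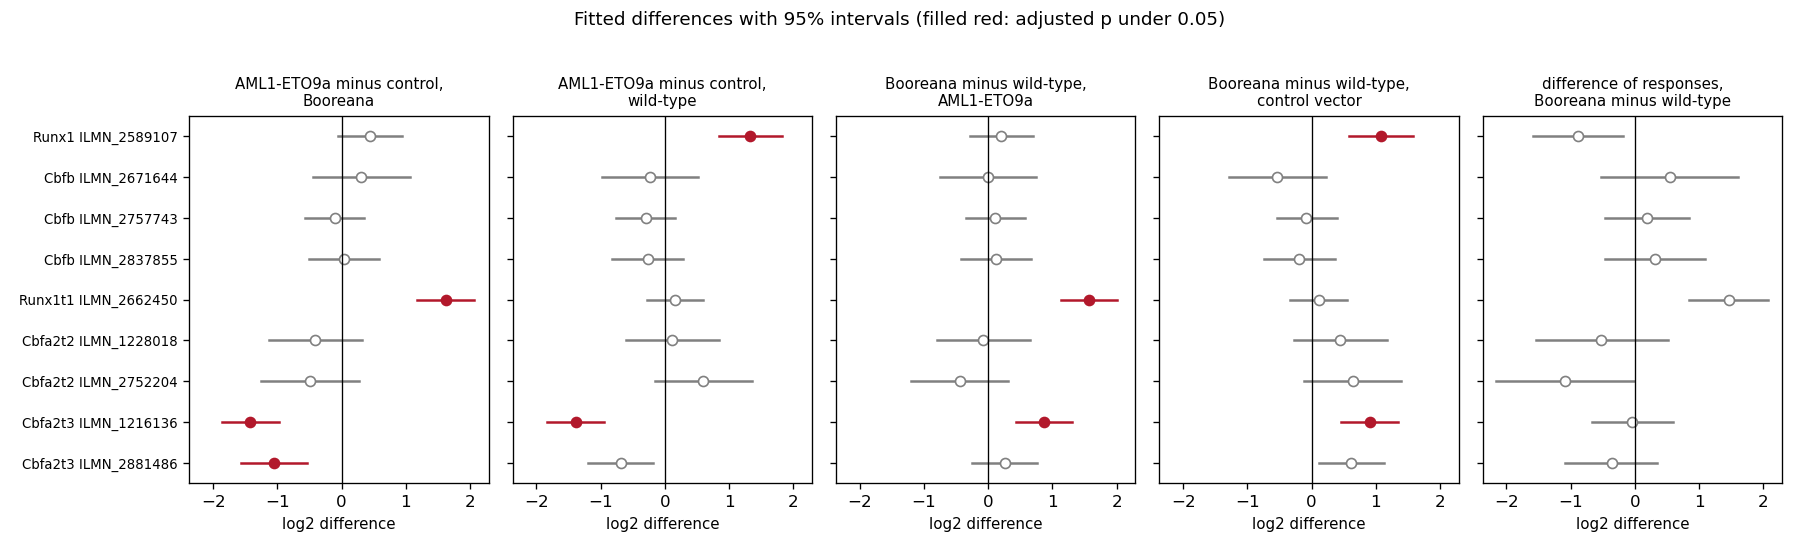
Differences in log2 intensity for the 9 tested family probes in the comparisons of the study, with 95% intervals; filled red points have an adjusted p under 0.05, and values of Runx1t1 rest partly on background. Runx1 stands at 1.33 with AML1-ETO9a in wild-type cells and 0.45 in Booreana cells, while the brighter Cbfa2t3 probe stands at -1.42 in Booreana cells and -1.39 in wild-type cells.

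Runx1 and Cbfa2t3 thus differed in how the groups were ordered. Booreana cells with the control vector had a higher level of both genes than wild-type cells with that vector. Against its own control, AML1-ETO9a went with more Runx1 in wild-type cells, and with less Cbfa2t3 in both genotypes. In wild-type AML1-ETO9a cells Runx1 lay 1.33 above the control mean and Cbfa2t3 lay 1.39 below it. These comparisons share their control arrays, so no relation between the 2 genes' changes is given.

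**Figure D3:**
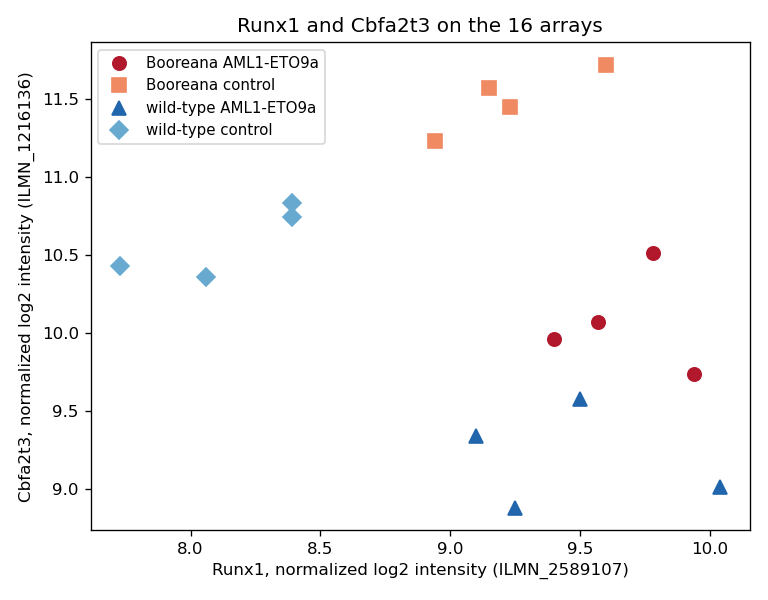
Log2 intensity of the Cbfa2t3 probe ILMN_1216136 against that of the Runx1 probe ILMN_2589107, 1 point per array, coloured by group. The wild-type control arrays reach at most 8.39 on the Runx1 axis, below all others, and the AML1-ETO9a arrays of each genotype lie below that genotype's control arrays on the Cbfa2t3 axis.

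The genes whose levels followed each member most closely over the 16 arrays were found among 8695 named genes by Pearson's correlation of log2 intensities. The arrays fall into 4 groups, so such a value largely reports shared group differences, and the correlation of the deviations from group means is given after it. For Runx1 they were Adgre1, the macrophage surface protein F4/80 (0.925, within groups 0.522), Irf2bpl (0.907, within groups 0.605) and Smap2 (0.893, within groups 0.421). For Cbfa2t3 they were Alox5, the 5-lipoxygenase of leukotriene synthesis (0.950, within groups 0.622), Rnase12 (0.942, within groups 0.166) and Acss2 (0.925, within groups 0.499). For Runx1t1 they were Gcnt2 (0.944, within groups 0.715), the macrophage transcription factor gene Spic (0.927, within groups 0.25) and Serpinb1a (0.922, within groups 0.362). None of these was the closest gene once group means were removed.

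For Cbfb the closest were Birc5, the mitotic protein survivin (0.956, within groups 0.96), Ndufaf7 (0.951, within groups 0.959) and Ubr1 (0.951, within groups 0.967). Booreana control replicate 2 took part in these: without it Birc5 stood at 0.908, Ndufaf7 at 0.914 and Ubr1 at 0.895. For Cbfa2t2 they were C2cd3 (0.945, within groups 0.943), Mau2 (0.921, within groups 0.94) and Crtc1 (0.914, within groups 0.927), with 0.92, 0.885 and 0.888 without that array. For these genes, which had no called change, the likeness lay within the groups. The within-group values included Booreana control replicate 2 and were not taken without it, so they may rest partly on that 1 array. All genes share the 16 arrays and their normalization, so these are descriptions over arrays.

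The corepressors that ETO proteins recruit showed no called change. Of 12 listed, 9 were tested, among them the deacetylases Hdac1, Hdac2 and Hdac3, the scaffold Sin3a and the NCoR complex subunits Tbl1x, Tbl1xr1 and Gps2. With limma 0 of the 9 were called in any of the 4 comparisons or in the difference between responses. The shares of all probes called were 1.65% to 6.34% in the 4 comparisons and 0.0862% in that difference. Their median change with AML1-ETO9a was 0.12 in Booreana cells and -0.11 in wild-type cells, and the medians of all tested probes were -0.03 and 0. Hdac3, the deacetylase of the NCoR complex, differed by 0.12 ± 0.18 in Booreana cells (adjusted p = 0.812) and by 0.09 ± 0.18 in wild-type cells (adjusted p = 0.949).

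Several of the factors that carry ETO proteins to DNA differed between the genotypes. Of 12 listed, 10 were tested. With AML1-ETO9a 4 were higher and 1 lower in Booreana than in wild-type cells, and with the control vector 5 were higher and 1 lower; among all probes 3.74% and 6.34% were called in these comparisons. For AML1-ETO9a against control, 1 rose in Booreana cells, and 1 rose and 1 fell in wild-type cells, where 1.65% and 4.32% of all probes were called. Gata2, a factor of stem cells, mast cells and early progenitors, was higher by 1.49 ± 0.35 with AML1-ETO9a (adjusted p = 0.0216) and by 2.36 ± 0.35 with the control vector (adjusted p = 0.000413). Gfi1b, a transcriptional repressor that acts within the erythroid and megakaryocyte lineages, was also higher. Its differences were 1.55 ± 0.33 with AML1-ETO9a (adjusted p = 0.0133) and 2.01 ± 0.33 with the control vector (adjusted p = 0.00109). Tal1, the helix-loop-helix factor that binds ETO2, was higher by 0.97 ± 0.23 with AML1-ETO9a (adjusted p = 0.0272) and by 1.16 ± 0.23 with the control vector (adjusted p = 0.00527). Gata1, the erythroid and megakaryocyte factor, was higher by 2.02 ± 0.39 with AML1-ETO9a (adjusted p = 0.00648) and by 2.05 ± 0.39 with the control vector (adjusted p = 0.00345), although it was detected on 2 wild-type AML1-ETO9a arrays and 1 wild-type control array. The E protein gene Tcf4 was higher with the control vector alone among the called values (0.88 ± 0.17, adjusted p = 0.00425; with AML1-ETO9a 0.23 ± 0.17, adjusted p = 0.759).

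Gfi1, a transcriptional repressor that acts within the granulocyte lineage and binds ETO proteins, moved the other way. It was lower in Booreana than in wild-type cells, at -1.48 ± 0.23 with AML1-ETO9a (adjusted p = 0.00131) and -3.95 ± 0.23 with the control vector (adjusted p = 5.25e-08). With AML1-ETO9a it rose in Booreana cells by 1.40 ± 0.23 (adjusted p = 0.00409) and fell in wild-type cells, at -1.08 ± 0.23 (adjusted p = 0.0125). The difference between these responses, 2.47 ± 0.33, was called (adjusted p = 0.0053), the 1 call of that kind in the list. Tcf4 was the other call for AML1-ETO9a, higher in wild-type cells by 0.72 ± 0.17 (adjusted p = 0.0246). With replicate number within genotype as a block, 2 further genes of this list passed: Gata2 in Booreana cells (-1.18, adjusted p = 0.00454; 0.118 without the block) and Tal1 in wild-type cells (0.71, adjusted p = 0.0288; 0.12 without the block). Median changes of the list with AML1-ETO9a were 0.04 in Booreana and 0.18 in wild-type cells, and median differences between genotypes were 0.13 with AML1-ETO9a and 0.46 with the control vector, where the medians of all probes were -0.03 and 0.01.

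**Figure D4:**
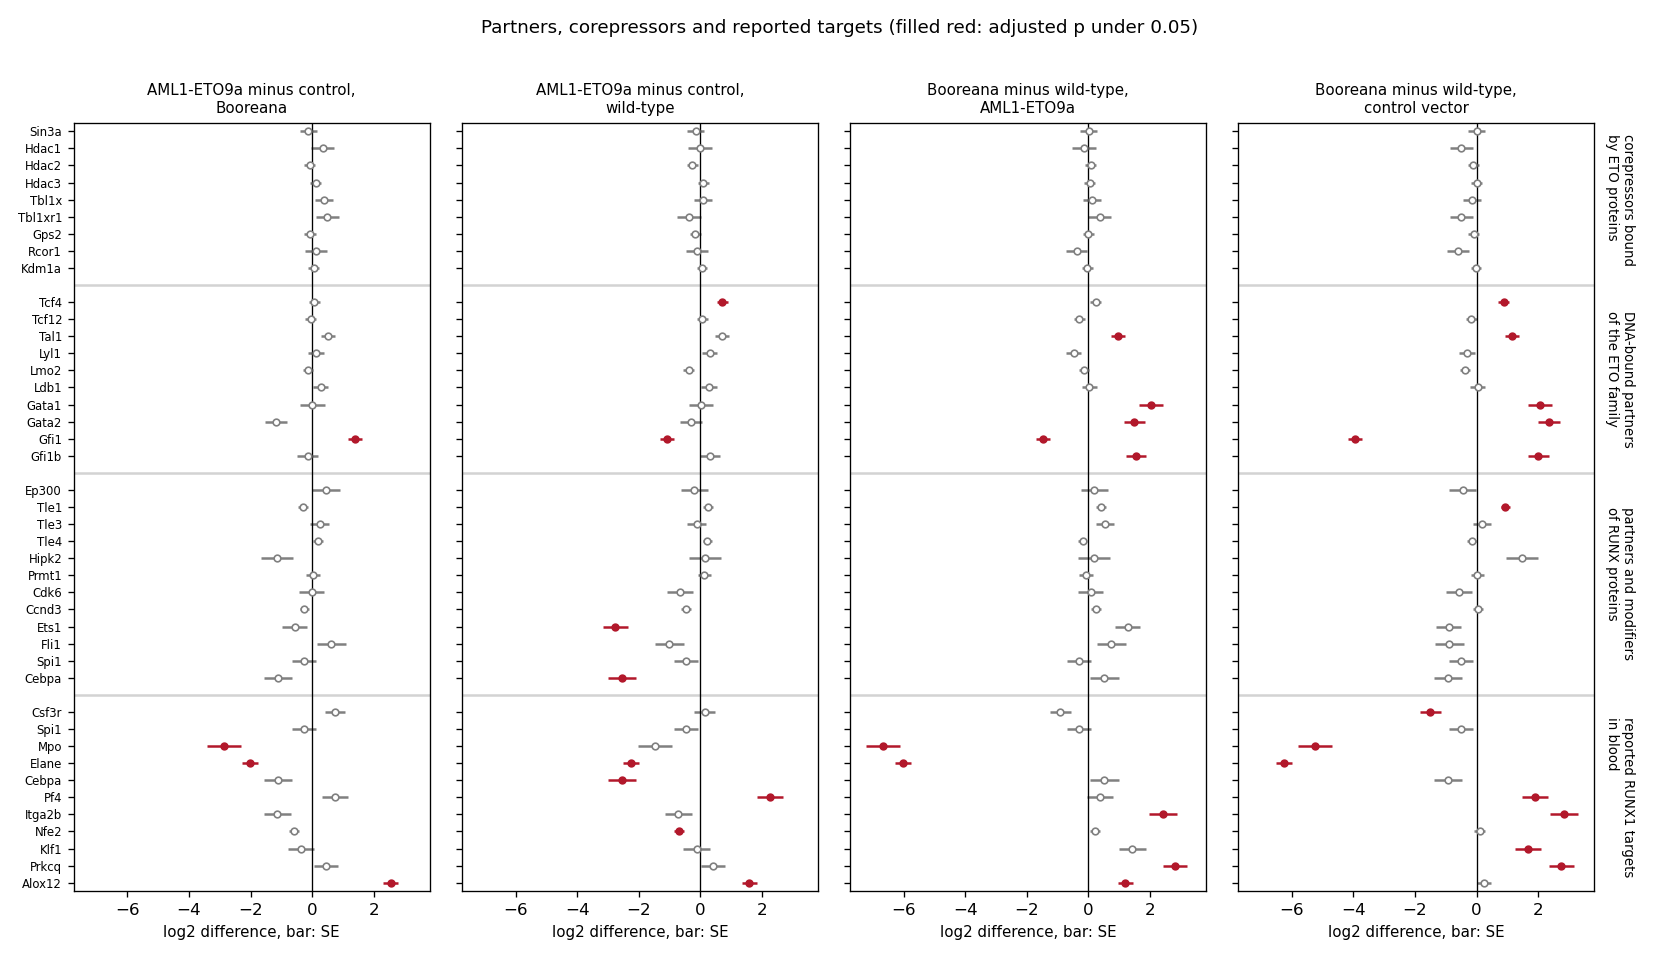
Log2 differences with standard errors for the tested genes of 4 lists (corepressors bound by ETO proteins, DNA-bound partners of the ETO family, partners and modifiers of RUNX proteins, and reported RUNX1 targets in blood) in the 4 comparisons; filled red points have an adjusted p under 0.05. The corepressors lie near 0 throughout, Gfi1 reaches -3.95 in Booreana against wild-type control cells, and Mpo and Elane lie furthest to the left in both genotype comparisons.

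Of 17 partners and modifiers of RUNX proteins, 12 were tested. In wild-type cells, where 4.32% of all probes were called, 2 fell with AML1-ETO9a: Ets1, whose protein binds DNA together with RUNX1, at -2.76 ± 0.41 (adjusted p = 0.00072), and Cebpa, the granulocyte factor, at -2.54 ± 0.46 (adjusted p = 0.00362), with 1 of 4 AML1-ETO9a arrays detected. In Booreana cells 0 were called, where 1.65% of all probes were. Cebpa changed there by -1.10 ± 0.46 (adjusted p = 0.334), and without Booreana control replicate 2 by -1.74 (adjusted p = 0.00122). The Groucho corepressor gene Tle1 was higher in Booreana than in wild-type cells with the control vector by 0.94 ± 0.16 (adjusted p = 0.00151). It was the 1 call among the 12 in that comparison, where 6.34% of all probes were called. With AML1-ETO9a 0 were called between genotypes, where 3.74% of all probes were. Without Booreana control replicate 2 Ets1 was called (adjusted p = 0.0107, and 0.123 with it). Its difference was 1.28 with or without that array, which enters this comparison only through the spread shared by the groups.

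The list of reported RUNX1 targets held 14 genes, of which 11 were tested, and it shares Spi1 and Cebpa with the list before it. In Booreana cells with AML1-ETO9a 1 rose and 2 fell, where 1.65% of all probes were called, and in wild-type cells 2 rose and 3 fell, where 4.32% were. Alox12, the platelet 12-lipoxygenase that RUNX1 activates, rose in both. It changed by 2.55 ± 0.24 in Booreana cells (adjusted p = 6.92e-05), where 1 control array was detected, and was at least 1.97-fold higher in wild-type cells (adjusted p = 0.000778), where none was. Elane, the neutrophil elastase gene, fell in both, at -2.02 ± 0.25 in Booreana cells (adjusted p = 0.000407) and -2.25 ± 0.25 in wild-type cells (adjusted p = 5.85e-05). Mpo, the gene of myeloperoxidase, fell in Booreana cells (-2.87 ± 0.55, adjusted p = 0.0119; wild-type cells -1.46 ± 0.55, adjusted p = 0.209, and 0.00227 with the replicate block within genotype). In wild-type cells the platelet chemokine gene Pf4 rose by 2.27 ± 0.42 (adjusted p = 0.00418), Nfe2, a platelet and erythroid factor, fell by 0.70 (adjusted p = 0.0278), and Cebpa is given above.

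Between genotypes, 3 targets were higher and 2 lower in Booreana cells with AML1-ETO9a, and 4 were higher and 3 lower with the control vector, where 3.74% and 6.34% of all probes were called. Elane was lower, at -6.03 ± 0.25 with AML1-ETO9a (adjusted p = 1.41e-09) and -6.26 ± 0.25 with the control vector (adjusted p = 8.12e-10), and Mpo was lower, at -6.67 ± 0.55 with AML1-ETO9a (adjusted p = 3.42e-06) and -5.26 ± 0.55 with the control vector (adjusted p = 2.31e-05). Csf3r, the granulocyte growth factor receptor gene, was lower with the control vector (-1.50 ± 0.34, adjusted p = 0.0121). Itga2b, the platelet integrin CD41, was higher by 2.42 ± 0.45 with AML1-ETO9a (adjusted p = 0.00541) and by 2.84 ± 0.45 with the control vector (adjusted p = 0.000852). Prkcq was higher by 2.80 ± 0.39 with AML1-ETO9a (adjusted p = 0.000462) and by 2.76 ± 0.39 with the control vector (adjusted p = 0.000296), sizes that rest partly on background, since it was detected on 2 wild-type AML1-ETO9a arrays and 1 wild-type control array. Pf4 was called higher with the control vector (1.91 ± 0.42, adjusted p = 0.0105) and Alox12 with AML1-ETO9a (1.20 ± 0.24, adjusted p = 0.00761). Of the others, Nfe2 differed by 0.21 with AML1-ETO9a and 0.10 with the control vector, and Cebpa by 0.52 with AML1-ETO9a and -0.93 with the control vector; neither was called. Klf1, the erythroid factor gene, was called with the control vector (1.68, adjusted p = 0.0254) and lost its call without Booreana control replicate 2 (1.24, adjusted p = 0.0528). With AML1-ETO9a it was called only without that array (adjusted p = 0.0184, and 0.0905 with it). The difference was 1.43 either way, since that array enters the AML1-ETO9a comparison only through the spread shared by the groups.

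Across all arrays, median intensities ran from 189 to 250 and 39.5% to 46.7% of probes were detected. Booreana control replicate 2 stood apart, with a mean correlation of 0.845 with the other arrays where the remaining 15 had 0.931 to 0.955. Without it the called family changes kept their direction. The fall of the Cbfa2t3 probe ILMN_2881486 in Booreana cells lost its call (-1.01, adjusted p = 0.0671). Runx1 in Booreana over wild-type control cells was 1.18 without that array (adjusted p = 0.00634), and Cbfa2t3 (ILMN_1216136) was -1.51 for AML1-ETO9a in Booreana cells (adjusted p = 0.00144).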

How the data were processed

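The authors deposited, per the file headers, raw probe intensities that had not been normalized, and a detection p-value beside each, for 25697 probes on 16 arrays. The lowest intensity, 112, shows that no background had been taken off, and the detection p-values have the step size of 798 negative controls. The authors also deposited processed values, near a log2 scale (median 8.34 on each array, range 7.99 to 16.1), which served as an alternative. The submitters' processing notes name lumi. Its settings are not given in the sources used here, so the centring and transformation of those values are unknown.

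Here the intensities were corrected with limma's normexp method (offset 16, the negative control distribution being inferred from detection p-values), then quantile normalized and log2 transformed, using limma 3.58.1, statmod 1.5.0 and R 4.3.3. Probes detected at p under 0.05 on at least 4 arrays were fitted with 4 group means. From this fit 5 comparisons were taken, with Benjamini-Hochberg adjustment over 12760 probes. Procedures were tested on simulated data with independent noise at each probe's own spread. In the wild-type comparison, rises of 1 log2 unit were called for 40% of the changed probes and falls of 1 for 52%. Rises of 2 were called for 82% and falls of 2 for 88%, so a probe that was not called may still have changed. Summed marker levels are linear, after background correction and normalization.

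Gene symbols came from the platform's annotation, which named 1 gene for 23978 probes and none for 1719. All probes of the family genes are described. Of each list, the called genes are named, up to 6 a comparison, and a gene with several tested probes is represented by the brightest. The genes most like a member are the 3 with the highest correlation, leaving out clones and predicted genes. The members and lists were chosen with earlier results of these data known.

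Equal replicate numbers went together within a genotype: deviations from the group means correlated at 0.36 to 0.42 for the 4 Booreana pairs and 0.17 to 0.71 for the 4 wild-type pairs. Between genotypes they did not (-0.25 to 0.17 with AML1-ETO9a and -0.51 to 0.33 with the control vector). The labels do not state what a number marks. The alternatives changed the background correction, offset, normalization, probe filter, weights, block and arrays left out. The number of arrays limits the precision.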

Additional observations from a re-analysis of the deposited data

Results flagged for a closer look

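In 52 sets of 4 arrays, 1 for each of 13 family probes in each group, the highest or lowest array was set against its nearest neighbour as a share of the whole range. In 3 sets that share was above Dixon's critical value for 4 values, which chance exceeds in about 1 in 20 sets. Cbfb stood low on Booreana control replicate 2 by both bright probes, at 12.14 for ILMN_2757743 (next array 12.90, share 0.865) and at 11.79 for ILMN_2837855 (next array 12.92, share 0.915); that array also had the lowest mean correlation with the others (0.845). For Cbfa2t2, probe ILMN_2752204 stood high on wild-type control replicate 1, at 5.81 (next array 5.13, share 0.972), where it was detected on that array alone of its group.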

How the results depend on the processing

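Of the 9 called family changes, 139 of 155 alternatives left the direction and the call as they were, 16 lost the call and 0 turned the direction. Of the 36 uncalled changes, 643 of 675 alternatives left them uncalled with the same sign, 5 brought a call and 27 changed the sign with neither value called. Over the alternatives, Runx1 in wild-type cells ranged from 0.75 to 1.45 with AML1-ETO9a, and the Cbfa2t3 probe ILMN_1216136 from -1.57 to -1.21 in Booreana and from -1.51 to -1.02 in wild-type cells, all called. The number of family probes called moved with few settings. In Booreana cells it was 1 with probes detected on all 16 arrays, which leaves out the dim probes (2 to 3 with an array left out). In wild-type cells it was 2 with any array left out. Between genotypes with AML1-ETO9a it was 1 with probes detected on all 16 arrays and with only the compared groups fitted (1 to 2 with an array left out). With the control vector it was 1 to 2 with an array left out. For the difference between responses it was 1 with array quality weights (Runx1t1, adjusted p = 0.0208), and 0 to 1 with an array left out.

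The fall of the Cbfa2t3 probe ILMN_2881486 in Booreana cells lost its call with no background correction (-0.37, adjusted p = 0.051), no normalization (-0.79, adjusted p = 0.245), the authors' processed values (-0.22, adjusted p = 0.0503), only the compared groups (-1.05, adjusted p = 0.1) and 6 single arrays left out; the cause was not tested. In wild-type cells the same probe was called with the replicate number as a block (-0.69, adjusted p = 0.0471), with the block within genotype (0.0374) and with array weights (0.0344). The replicate block, pairing arrays of equal number, changed no other family call. Over all probes the block within genotype gave 454 calls in Booreana cells (210 without), 959 in wild-type cells (551 without) and 37 for the difference between responses (11 without, 17 with the block over all arrays).

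Other counts over all probes moved too. For AML1-ETO9a in Booreana cells there were 118 calls with probes detected on all 16 arrays, 535 with array weights and 63 with only the compared groups. In wild-type cells there were 336 with no normalization, 1125 with weights and 355 without wild-type control replicate 3. Between genotypes there were 283 with the all-array filter and 738 with weights under AML1-ETO9a, and 1285 with weights and 515 with only the compared groups under the control vector. For the difference between responses there were 21 with no background correction, 19 with offset 50, 6 with no normalization, 28 with the authors' values, 3 with the all-array filter and 57 with weights, and 6 to 14 with an array left out.

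Sign changes concerned small uncalled values. With array weights, Cbfb ILMN_2837855 was -0.16 for AML1-ETO9a in Booreana cells and 0.01 between genotypes with the control vector. In that comparison Cbfb ILMN_2757743 was 0.02 with no normalization and 0.04 with weights. With AML1-ETO9a, Cbfb ILMN_2671644 was -0.03 between genotypes with offset 50, and Cbfa2t2 ILMN_1228018 was 0.05 with no normalization and 0.00 with weights. With an array left out, Cbfb ILMN_2837855 ran from -0.26 to 0.15 for AML1-ETO9a in Booreana cells and from -0.30 to 0.11 between genotypes with the control vector, where ILMN_2757743 ran from -0.20 to 0.13. ILMN_2757743 ran from -0.02 to 0.31 for the difference between responses, and ILMN_2671644 from -0.18 to 0.36 between genotypes with AML1-ETO9a. Cbfa2t2 ILMN_1228018 ran from -0.08 to 0.36 for AML1-ETO9a in wild-type cells and from -0.26 to 0.11 between genotypes with AML1-ETO9a, and Cbfa2t3 ILMN_1216136 from -0.18 to 0.09 for the difference between responses. The slide as a block was not run, since the headers name none. The block within genotype, and the pathway counts and likeness values without Booreana control replicate 2, were chosen after seeing the data. Probes near background, those of Cbfa2t2, Runx1t1 and the dim ones of Cbfb and Cbfa2t3, are limited by signal over background.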
